A study of Saccharomyces cerevisiae with 15 samples.

Results

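The comparison set a yeast strain that lacks MBF1 against its parent, both making the same aggregating fragment of human huntingtin. It used 6 of the 15 arrays of the series, namely the 3 arrays labelled mbf1 and the 3 labelled Htt103Q, and 9275 of the 9335 probe sets, with 60 control probe sets left out. Each array measured total RNA from haploid MATa cells of the laboratory strain BY4741. The Htt103Q group carried no further deletion and expressed a galactose-inducible huntingtin fragment with 103 glutamines. The mbf1 group expressed the same fragment in cells with the genotype mbf1Δ. A further group, bna4Δ cells with the same fragment, served as a reference because its 3 arrays were processed together with those of the mbf1 deletion. Cultures of 12 mL in 2% galactose medium lacking uracil were shaken at 30 °C, started at an OD600 of 0.2 and collected near 1. The remaining 6 arrays held cells with a 25-glutamine fragment (Htt25Q) and ume1Δ cells with Htt103Q. The series describes the mutants as suppressor strains. The labels do not state how many clones of a deletion were used or whether replicates were separate cultures, so each p-value measures the spread between these arrays, which may be technical.

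Mbf1 is a small, conserved coactivator that bridges the TATA-binding protein and the transcription factor Gcn4. Gcn4 is made when amino acids run short and switches on genes of amino acid synthesis, among them those of arginine, lysine, histidine and the branched-chain amino acids. Yeast Mbf1 is also known for keeping ribosomes in frame where they stall and collide. Lysine is made in fungi through the alpha-aminoadipate pathway, whose genes have an activator of their own, Lys14.

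Values are log2 signals, quantile normalized over the 15 arrays, so a difference of 1 is a doubling of linear signal relative to the other probe sets. As deposited, the Htt103Q arrays had a lowest value of 2.06 and medians of 6.35 to 6.47. The mbf1 arrays had a lowest value of 2.02 and medians of 6.79 to 6.84, and the bna4 arrays the same lowest value with medians of 6.78 to 6.82. The arrays thus came from different processing sets, and strain and set cannot be told apart in the mbf1 deletion against Htt103Q. Control signal for 18S ribosomal RNA was 6.19 to 7.31 in Htt103Q, 9.6 to 10.7 in the mbf1 deletion and 11 to 11.2 in the bna4 deletion. The defining genes of a MATa cell were present, with MFA2 at 11.76 to 12.06 in the mbf1 arrays, and the least signal among the 7 a-specific genes was that of ASG7, at 4.08 to 4.6. Of the 4 alpha-specific genes, MF(ALPHA)2 was at 2.05 to 2.07 in the mbf1 arrays, MF(ALPHA)1 at 2.48 to 2.75, STE3 at 3.95 to 4.32 and SAG1 at 4.87 to 5.48. MF(ALPHA)1 was at 4.18 to 4.46 in Htt103Q. MET17, which BY4741 lacks, was at 2.04 on the 9 arrays compared. HIS3, which the strain also lacks in function, gave 9.33 to 9.45 in the mbf1 arrays. URA3, the marker selected by the medium, was 10.1 to 10.5 in the mbf1 arrays and 8.71 to 9.07 in Htt103Q. The difference of 1.4 did not pass the test (limma adjusted p = 0.0633), with an SE of 0.539. The fit pools the spread of all groups, and URA3 had an SD of 1.34 in Htt25Q. Its mbf1 arrays lay above every Htt103Q and bna4 array.

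MBF1 itself was nearly silent in the strain that lacks it. Its signal was 11.46, 11.53 and 11.26 in the Htt103Q arrays, 10.67, 10.46 and 10.4 in the bna4 arrays, and 2.11, 2.11 and 2.05 in the mbf1 arrays. The groups did not overlap, and the mbf1 arrays lay next to the lowest value that an array gave. MBF1 fell by 9.33 against Htt103Q (SE 0.126, limma adjusted p = 1.39e-12). Of the genes on either side, MUM3 differed by −0.11 (adjusted p = 0.637) and BUD7 by 0.13 (0.795) against Htt103Q, and 1 of the 3 probe sets of BUD7 was called lower. Against the bna4 deletion MUM3 fell by 0.63 (0.016), a call lost under 3 of 16 alternatives, and BUD7 differed by −0.28 (0.694). GCN4, the partner of Mbf1, had 12.44, 12.49 and 12.32 in Htt103Q and 12.78, 12.78 and 12.25 in the mbf1 deletion. These values overlapped, and the difference of 0.19 did not pass the test (adjusted p = 0.331). The bna4 arrays, at 12.92, 12.97 and 13.0, all lay above the mbf1 arrays, and that difference of −0.36 did not pass the test either (0.146). SPT15, which encodes the TATA-binding protein, fell by 0.49 against Htt103Q (0.0209) and by 0.66 against the bna4 deletion (0.0141). Each of those calls was lost under 2 of 17 alternative settings. Of 26 genes of Mbf1 and Gcn4 regulation measured, 4 were higher and 3 lower than in Htt103Q, MBF1 included. These shares were near or below the 15.1% higher and 23.2% lower of all genes. The bna4 deletion had 7 higher and 4 lower of the same genes against the same Htt103Q arrays, where 19.6% and 29.2% of all genes were. Apart from MBF1 only SPT15 also differed in the same direction from the bna4 deletion.

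Against Htt103Q, 3400 of 9275 probe sets (36.7%) were called at a limma adjusted p under 0.05, 1618 higher (17.4%) and 1782 lower (19.2%). The split moved with the scaling, to 2634 higher and 990 lower in the deposited values and 1467 higher and 3582 lower after median centring, and the median of all genes moved from −0.07 to 0.16 and −0.25. The bna4 deletion against Htt103Q, which crosses the same processing sets and shares the Htt103Q arrays, had 44.1% called. Within 1 processing set, the mbf1 deletion against the bna4 deletion had 977 probe sets (10.5%) called, 533 higher (5.75%) and 444 lower (4.79%). Together, 270 probe sets (2.91%) were called in both in the same direction. A gene is described below as apart if every probe set matching it alone was called in both comparisons in the same direction. That held for 154 of 5655 genes (2.72%), MBF1 left out, with 58 higher (1.03%) and 96 lower (1.7%). BNA4 is kept in the 154, the 58 and the counts of apart genes below. Its call against the bna4 deletion is fixed, because that strain lacks the gene. Both comparisons share the mbf1 arrays. A set difference together with an opposite effect of the bna4 deletion could also make a gene apart, and these cases cannot be told apart here. In 105 of the 154 the bna4 deletion differed from Htt103Q by less than 0.5 on the log2 scale. The mbf1 arrays lay outside all 12 other arrays of the series for 42 of the higher and 65 of the lower genes. As a background, the mbf1 arrays lay wholly above or below those of Htt103Q for 58.6% of all genes, those of the bna4 deletion for 42.7%, both for 13.3% and all 12 others for 7.25%. The smaller of both changes was over 1 for 13 higher and 34 lower genes. Under the other scalings, 109 genes were apart and higher and 42 lower in the deposited values, and 41 higher and 100 lower after median centring. Of the 154 apart genes, 91 were also apart in the deposited values and 114 after median centring.

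Lysine synthesis gave the clearest rise. All 9 measured genes of the pathway were higher than in Htt103Q, where 15.1% of all genes were higher. Of these, 7 were also higher than in the bna4 deletion, where 7.0% of genes were, and those 7 genes were apart. The median difference of the 9 was 2.37 against Htt103Q and 2.03 against the bna4 deletion, while the median over all genes was −0.07 and 0.0. The bna4 deletion had 7 of the 9 higher and 1 lower against the same Htt103Q arrays, with a median of 0.94. Of all genes, 19.6% were higher and 29.2% lower there. With deposited and median centred values the list's median against Htt103Q was 2.31 and 1.89.

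The pathway starts with homocitrate synthase, made from LYS20 and LYS21. LYS20 had 8.95, 8.52 and 8.59 in Htt103Q, 10.7, 10.74 and 10.56 in the bna4 deletion and 12.96, 12.95 and 12.9 in the mbf1 deletion. The 3 groups were fully separate, with a rise of 4.25 (SE 0.345, adjusted p = 3.37e-06), or 19.0-fold, against Htt103Q and of 2.27 (0.00159) against the bna4 deletion. LYS21 rose from 10.5 ± 0.142 (SD, n = 3) in Htt103Q and 11.2 ± 0.0666 in the bna4 deletion to 12.6 ± 0.0434. LYS20 and LYS21 are paralogs, and a probe set that matches both read 12.05, 12.14 and 11.98 in the mbf1 arrays, 2.23 above Htt103Q (0.000362) and 1.83 above the bna4 deletion (0.00508). LYS4, homoaconitase, had 7.16, 7.52 and 6.85 in Htt103Q, 8.36, 8.4 and 8.48 in the bna4 deletion and 10.68, 10.56 and 9.88 in the mbf1 deletion. The lowest of its mbf1 arrays was still above every Htt103Q and bna4 array. LYS12, homoisocitrate dehydrogenase, rose by 2.37 against Htt103Q (9.63e-08) and by 2.03 against the bna4 deletion (2.91e-06).

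The later steps rose as well. LYS2, alpha-aminoadipate reductase, had 8.77, 9.15 and 9.37 in Htt103Q, 8.86, 9.48 and 9.27 in the bna4 deletion and 11.7, 11.67 and 10.79 in the mbf1 deletion. Htt103Q and the bna4 deletion overlapped for this gene, and the mbf1 arrays stood above both, with rises of 2.29 (SE 0.305, adjusted p = 0.000148) and 2.18 (0.000979). LYS9, which makes saccharopine, had 8.63, 8.81 and 8.86 in Htt103Q, 7.86, 8.06 and 7.99 in the bna4 deletion and 12.42, 12.28 and 12.55 in the mbf1 deletion. It was lower in the bna4 deletion than in Htt103Q, so its rise in the mbf1 deletion was larger within the processing set, at 4.45 (SE 0.0884, 7.51e-11), than across it, at 3.65 (1.82e-10). LYS1, which releases lysine from saccharopine, rose by 3.85 (6.1e-07) and 2.32 (0.000188). The mbf1 arrays of these 7 genes lay above all 12 other arrays of the series.

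The 2 other measured members differed less from the bna4 deletion. LYS14, the activator of the pathway, rose by 1.82 against Htt103Q (adjusted p = 0.000159), from 6.59 to 8.42, while the difference of 0.82 from the bna4 deletion did not pass the test (0.0578). LYS5, which attaches the cofactor of Lys2, rose by 0.81 against Htt103Q (0.00218) and differed by −0.12 from the bna4 deletion (0.827). The same 7 genes were apart under each of the 17 alternatives run, with LYS14 joining them under 4 of these. LYP1, the lysine permease, was higher by 0.82 (2.63e-05) and 0.36 (0.0222), and the second call was lost under 5 of 17 alternatives.

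**Figure D1:**
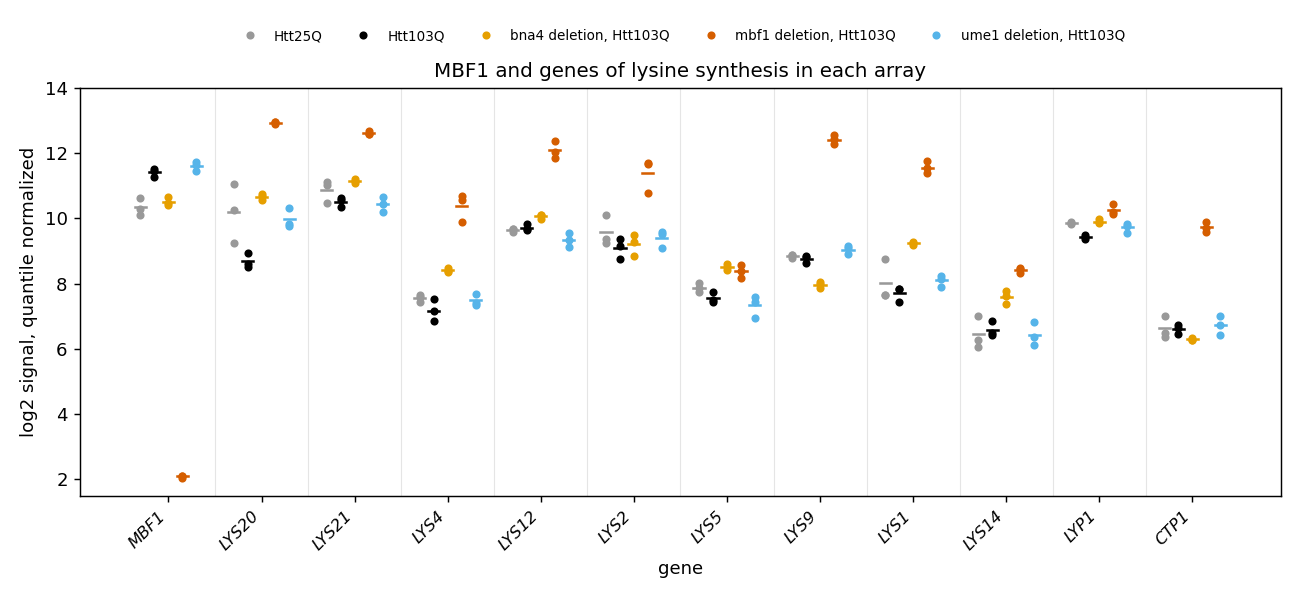
Log2 signal (quantile normalized, vertical axis) of MBF1, the 9 lysine synthesis genes, LYP1 and CTP1 in each of the 15 arrays; points are arrays, short lines the mean of 3 and colours the groups. The mbf1 arrays lie at 2.05 to 2.11 for MBF1 and above all 12 other arrays for the 7 apart lysine genes and CTP1.

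CTP1, the citrate transporter of the inner mitochondrial membrane, was the largest rise outside the lysine list by the smaller of both changes. It had 6.63, 6.46 and 6.72 in Htt103Q, 6.34, 6.28 and 6.28 in the bna4 deletion and 9.58, 9.72 and 9.89 in the mbf1 deletion. Nothing overlapped, and the rises were 3.13 (SE 0.172, adjusted p = 1.41e-07) and 3.44 (5.88e-07). ODC2, a carrier of oxoglutarate and oxoadipate, an intermediate of lysine synthesis, was apart with differences of 1.44 and 0.9. YHM2, a citrate and oxoglutarate carrier, was apart with 0.52 and 0.73. MPC3, a pyruvate carrier subunit of the same membrane, went the other way, apart with −1.51 and −1.72. ODC2, YHM2 and MPC3 were picked from the 154 after their values were seen.

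Among the other large rises, RPA135, a core subunit of RNA polymerase I, rose by 1.28 (adjusted p = 0.00173) and 1.15 (0.0113). Its call against the bna4 deletion was lost without bna4 replicate 1 or without mbf1 replicate 1, with adjusted p up to 0.0511. NRT1, the transporter of nicotinamide riboside, rose by 1.32 (6.41e-05) and 1.1 (0.00105). NAM7, the helicase of nonsense-mediated decay, rose by 1.38 (0.000134) and 1.06 (0.00306). PAN2, a poly(A) nuclease subunit, rose by 1.34 (6.89e-05) and 0.96 (0.00282), and RMA1 by 1.28 (1.97e-05) and 0.99 (0.000642). BNA4, the kynurenine 3-monooxygenase gene, was 1.15 higher than in Htt103Q (2.62e-05). Its call against the bna4 deletion is fixed by construction, because that strain lacks the gene, and its call against Htt103Q crosses the processing sets.

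Arginine genes moved in both directions. ARG8, acetylornithine aminotransferase of arginine synthesis, had 5.84, 5.72 and 5.59 in Htt103Q, 6.55, 7.1 and 7.02 in the bna4 deletion and 9.54, 9.3 and 9.51 in the mbf1 deletion. It rose by 3.73 (SE 0.366, adjusted p = 1.58e-05) and 2.56 (0.00111). ARG3, ornithine carbamoyltransferase, had 3.06, 3.45 and 3.57 in Htt103Q, 6.24, 6.35 and 6.25 in the bna4 deletion and 9.67, 9.55 and 9.91 in the mbf1 deletion. The 3 groups of ARG3 were separate. Its rise of 6.35 against Htt103Q passed the test (0.00104), and its difference of 3.43 from the bna4 deletion did not (0.0815), with an SE of 1.11. The fit pools the spread of all groups, and ARG3 had an SD of 3.15 in Htt25Q. ARG1, argininosuccinate synthetase, rose by 3.69 against Htt103Q (0.00538) and differed by 1.00 from the bna4 deletion (0.62).

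The genes that break arginine down fell. CAR1, arginase, had 11.83, 11.49 and 11.49 in Htt103Q, 10.47, 10.11 and 10.21 in the bna4 deletion and 8.14, 8.12 and 8.36 in the mbf1 deletion. CAR2, ornithine aminotransferase, had 11.46, 11.11 and 10.83, then 9.23, 8.79 and 8.95, and 7.12, 7.51 and 7.2 in the same order. Both were lowest in the mbf1 deletion, intermediate in the bna4 deletion and highest in Htt103Q, with no overlap. CAR1 fell by 3.40 (adjusted p = 3.21e-05) and 2.06 (0.00415), and CAR2 by 3.85 (3.76e-07) and 1.71 (0.000959). Of the 13 measured genes of arginine synthesis and use, 7 were higher and 3 lower than in Htt103Q, where 15.1% and 23.2% of all genes were. The bna4 deletion had 5 higher and 2 lower of the same genes against the same Htt103Q arrays, where 19.6% and 29.2% of all genes were. Only ARG8, CAR1 and CAR2 were apart.

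Some genes for the use of poorer nitrogen sources fell. PUT1, proline oxidase, fell by 1.64 (adjusted p = 0.00118) and 2.35 (0.0005), from 7.27, 7.45 and 7.37 in Htt103Q to 5.68, 5.58 and 5.93. GAP1, the general amino acid permease, fell by 1.99 (6.91e-07) and 0.74 (0.00452). AGP1, a broad amino acid permease, fell by 0.95 (0.00138) and 1.42 (0.000453). Another permease gene, ALP1, was apart and higher. Over 17 alternatives it rose by 0.39 to 1.39 against Htt103Q, a call lost under 4, and by 1.22 to 1.5 against the bna4 deletion. GDH3, a glutamate dehydrogenase that makes glutamate, fell by 1.21 (0.0351) and 2.40 (0.00285), and the first call was lost under 6 of 17 alternatives. Of 33 measured genes of glutamate, proline and nitrogen catabolite control, 5 were higher and 9 lower than in Htt103Q, shares near the 15.1% and 23.2% of all genes. Against the bna4 deletion 1 was higher and 8 were lower, where 7.0% and 5.62% of all genes were, and 3 were apart, all lower. SER3, 3-phosphoglycerate dehydrogenase of serine synthesis, had 8.78, 9.36 and 9.69 in Htt103Q, 9.32, 9.75 and 9.79 in the bna4 deletion and 7.34, 7.55 and 6.86 in the mbf1 deletion. SER3 fell by 2.03 (0.00035) and 2.37 (0.000574), and it was the 1 apart gene of 17 in serine, glycine and threonine metabolism.

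**Figure D2:**
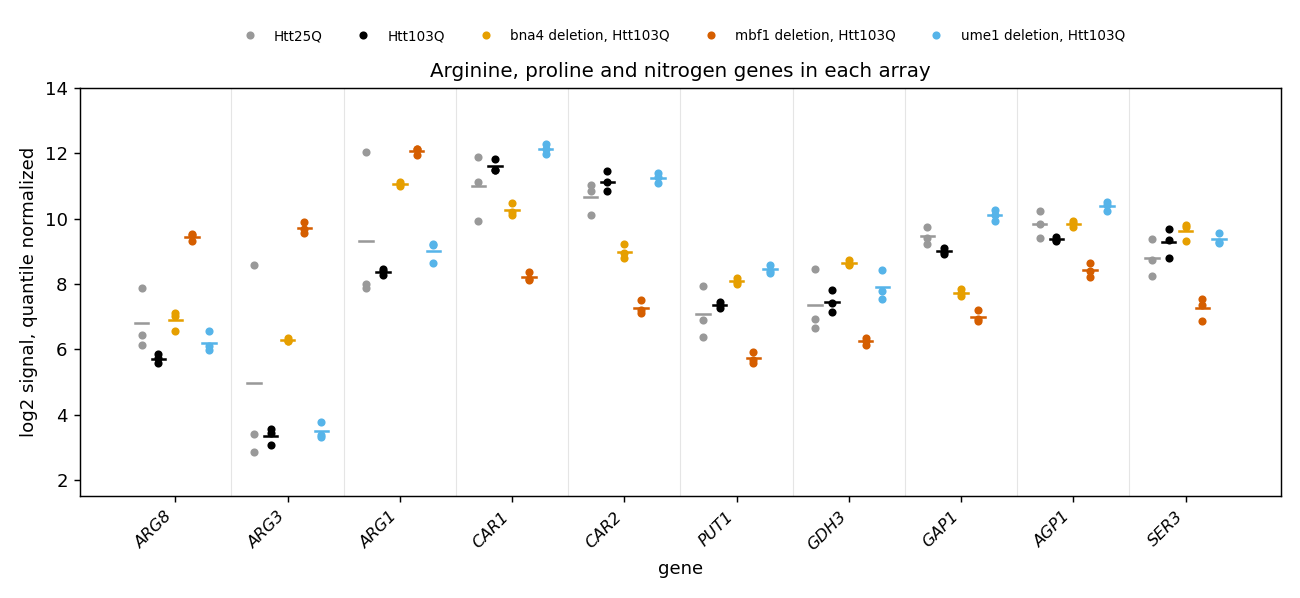
Log2 signal (quantile normalized, vertical axis) of arginine, proline, nitrogen and serine genes in each of the 15 arrays; points are arrays, short lines the mean of 3 and colours the groups. ARG8 is highest and CAR1, CAR2, PUT1 and SER3 are lowest in the mbf1 arrays, while ARG3 rises stepwise over Htt103Q, the bna4 deletion and the mbf1 deletion.

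Other routes under Gcn4 did not follow lysine. Of 12 genes of branched-chain amino acid synthesis, 8 were higher than in Htt103Q, where 15.1% of all genes were. LEU1 was higher by 2.11 and BAT1 by 1.49. The bna4 deletion had 7 higher and 1 lower against the same Htt103Q arrays, where 19.6% and 29.2% of all genes were. Within the processing set, none was higher and 1 was lower in the mbf1 than in the bna4 deletion, and none was apart. LEU1 stood at 12.5 in the bna4 and 12.3 in the mbf1 deletion. Of 34 genes of sulfur assimilation and methionine, 12 were higher and 1 lower than in Htt103Q, and none was apart. The bna4 deletion had 13 higher and 2 lower of these sulfur genes against the same Htt103Q arrays. None of the 6 histidine synthesis genes was called in either comparison, and for HIS5 the difference was 0.70 (adjusted p = 0.0845) and −0.56 (0.327).

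Some genes typical of stationary phase and stress were lower. Of 48 genes that the stress factors Msn2 and Msn4 are known to drive, none was higher and 18 were lower than in Htt103Q, against 23.2% of all genes, and 5 were apart, all lower. The bna4 deletion had 4 higher and 19 lower of the same genes against the same Htt103Q arrays, where 19.6% and 29.2% of all genes were. Within the processing set, 3 were higher and 6 lower in the mbf1 than in the bna4 deletion, with a median difference of −0.08, and 5.62% of all genes were lower there. SPG1, needed for survival in stationary phase, had 6.64, 6.69 and 6.62 in Htt103Q, 9.04, 8.92 and 9.02 in the bna4 deletion and 3.43, 4.0 and 4.08 in the mbf1 deletion. SPG4, named for the same property, had 8.24, 8.53 and 8.4, then 10.68, 10.64 and 10.57, and 6.11, 5.72 and 6.01 in the same order. Both were higher in the bna4 deletion than in Htt103Q and lowest in the mbf1 deletion. SPG1 fell by 2.81 (adjusted p = 4.21e-06) and 5.15 (3.08e-07), and SPG4 by 2.45 (0.000225) and 4.69 (1.06e-05). The Htt25Q arrays overlapped the mbf1 arrays for SPG1, with 3.22, 4.33 and 3.89, for SPG4, with 5.09, 6.91 and 6.42, and also for SIP18, USV1 and HXT5. SIP18, a gene of desiccation stress, fell by 1.68 (0.00177) and 2.57 (0.0005). USV1, a zinc finger regulator, fell by 1.49 (0.0118) and 1.78 (0.0135), the second lost under 2 of 17 alternatives, and PHM7 by 1.53 and 1.04. The bulk stress genes HSP12 and CTT1 differed by −0.31 (0.271) and 0.39 (0.459) from Htt103Q and did not pass the test.

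Of 48 measured genes of hexose transport and glycolysis, 1 was apart and higher and 3 were apart and lower, where 1.03% and 1.7% of all genes were. Of 44 genes of oxidative phosphorylation, 3 were higher and 3 lower than in Htt103Q, where 15.1% and 23.2% of all genes were. Against the bna4 deletion 5 were higher and none lower, where 7.0% and 5.62% of all genes were, and 1 was apart and higher. HXT5, a hexose transporter of slow growth, had 7.4, 7.79 and 7.73 in Htt103Q, 8.78, 8.86 and 8.68 in the bna4 deletion and 5.61, 5.75 and 5.75 in the mbf1 deletion, falling by 1.93 (adjusted p = 0.000957) and 3.07 (0.000191). RGI2, a gene of respiratory growth, fell by 1.80 (0.000429) and 2.10 (0.000698). The neighbours YNL194C and YNL195C fell by 1.94 and 2.22 against Htt103Q.

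Phosphate and iron uptake showed large single falls. PHO84, the high-affinity phosphate transporter, had 9.1, 8.67 and 8.64 in Htt103Q, 8.74, 8.9 and 8.58 in the bna4 deletion and 4.46, 5.74 and 5.82 in the mbf1 deletion. Htt103Q and the bna4 deletion overlapped, and the mbf1 arrays lay below both, with falls of 3.47 (SE 0.356, adjusted p = 2.24e-05) and 3.40 (0.000151). SPL2, an inhibitor of low-affinity phosphate uptake, was at the lowest value in the mbf1 arrays, at least 5.38-fold below Htt103Q (4.75e-05). Against the bna4 deletion it was at least 2.05-fold lower (0.0351), a call lost under 6 of 17 alternatives. PHO89, a sodium and phosphate carrier, fell by 0.98 (0.025) and 2.98 (0.000123), and the first call was lost under 7 of 17. Of 21 phosphate genes, none was higher and 11 were lower than in Htt103Q, where 23.2% of all genes were lower, and these 3 were apart. The bna4 deletion had 3 higher and 9 lower against the same Htt103Q arrays, where 19.6% and 29.2% of all genes were. The list's median difference between the mbf1 and bna4 deletions was −0.02. PHO5, the secreted acid phosphatase, differed by −0.22 from Htt103Q (0.715).

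FIT3, a cell wall protein that helps retain iron carriers, had 11.68, 10.18 and 11.65 in Htt103Q, 11.34, 11.41 and 11.26 in the bna4 deletion and 8.14, 8.44 and 8.59 in the mbf1 deletion. It fell by 2.78 (adjusted p = 0.014) and 2.95 (0.0296), and the call against the bna4 deletion was lost in 6 of 17 alternatives, each of which left out 1 array. Of 30 iron genes, 1 was higher and 8 were lower than in Htt103Q, the latter a share near the 23.2% of all genes, and FIT3 and MRS4, a mitochondrial iron carrier, were apart. MRS4 had −0.65 against the bna4 deletion with an adjusted p of 0.0498, lost in 11 of 17 alternatives.

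**Figure D3:**
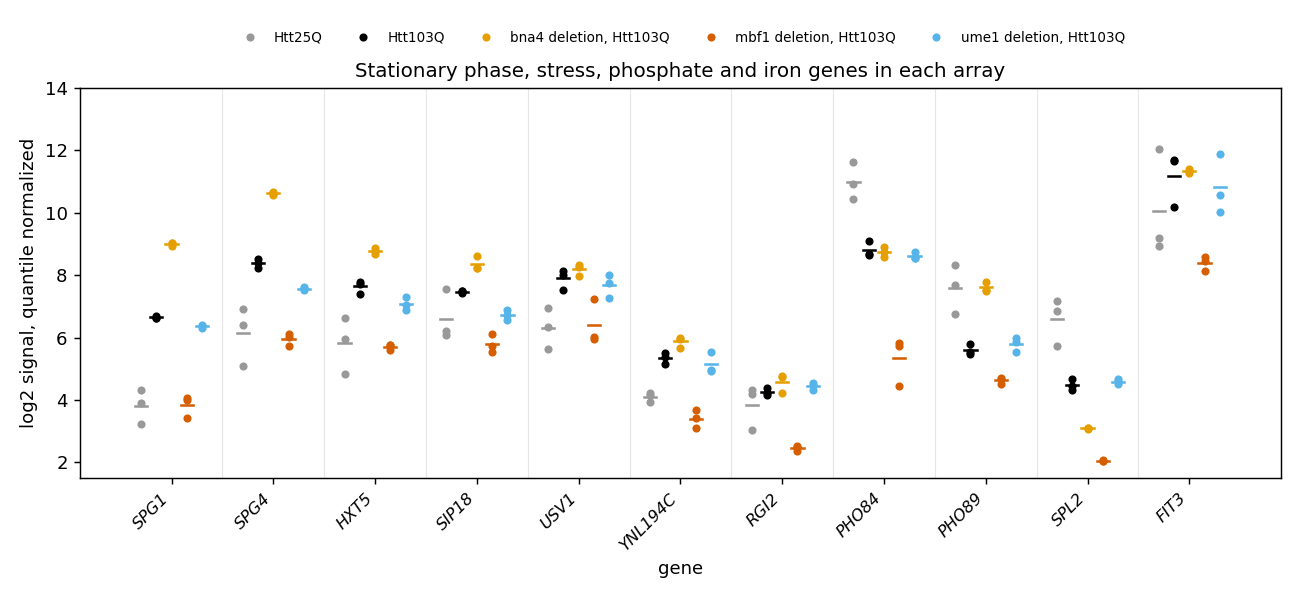
Log2 signal (quantile normalized, vertical axis) of stationary phase, stress, phosphate and iron genes in each of the 15 arrays; points are arrays, short lines the mean of 3 and colours the groups. PHO84 lies at 4.46 to 5.82 in the mbf1 arrays and at 8.58 to 9.1 in the Htt103Q and bna4 arrays, and SPG1 and SPG4 are highest in the bna4 deletion.

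Some structural RNAs were among the largest falls. SNR14, the U4 spliceosomal RNA, had 7.56, 7.14 and 7.72 in Htt103Q, 7.15, 7.22 and 7.43 in the bna4 deletion and 3.82, 4.46 and 3.69 in the mbf1 deletion. It fell by 3.48 (SE 0.208, adjusted p = 2.84e-07) and 3.27 (3.65e-06). The U5 RNA gene SNR7-L fell by 1.96 (0.000593) and 2.35 (0.000798), and TLC1, the telomerase RNA, was apart with −0.97 and −1.34. Of the 4 small nuclear RNA genes measured, only SNR14 and SNR7-L were apart. SNR6 fell by 3.04 against Htt103Q (adjusted p = 0.000413) and differed by −0.07 from the bna4 deletion. SNR19 differed by −0.22 (0.456) and −0.63 (0.084). Of 63 small and structural RNA genes measured, 4 were higher and 28 lower than in Htt103Q, where 15.1% and 23.2% of all genes were. The median of the 63 was −0.83 against Htt103Q and −0.11 against the bna4 deletion, and −0.34 for the bna4 deletion against Htt103Q. None was higher and 6 were lower than in the bna4 deletion, where 7.0% and 5.62% of all genes were, and 5 were apart, all lower. The 18S ribosomal RNA control also differed between these groups (9.6 to 10.7 in the mbf1 and 11 to 11.2 in the bna4 arrays), and its part in this result was not tested.

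Peroxisome genes split. POT1, the thiolase of fatty acid breakdown, fell by 2.00 (adjusted p = 3.86e-05) and 1.00 (0.0141), the second lost under 4 of 17 alternatives, while PEX11, which divides peroxisomes, rose by 0.57 (0.00486) and 1.01 (0.000557). Of 34 measured, 2 were apart and higher and 4 apart and lower, where 1.03% and 1.7% of all genes were. Against Htt103Q 4 were higher and 10 lower, where 15.1% and 23.2% of all genes were. Against the bna4 deletion 4 were higher and 7 lower, where 7.0% and 5.62% were. PEX15, one of the lower genes, had a difference of 0.01 against Htt103Q in the deposited values, so its direction depended on the scaling.

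**Figure D4:**
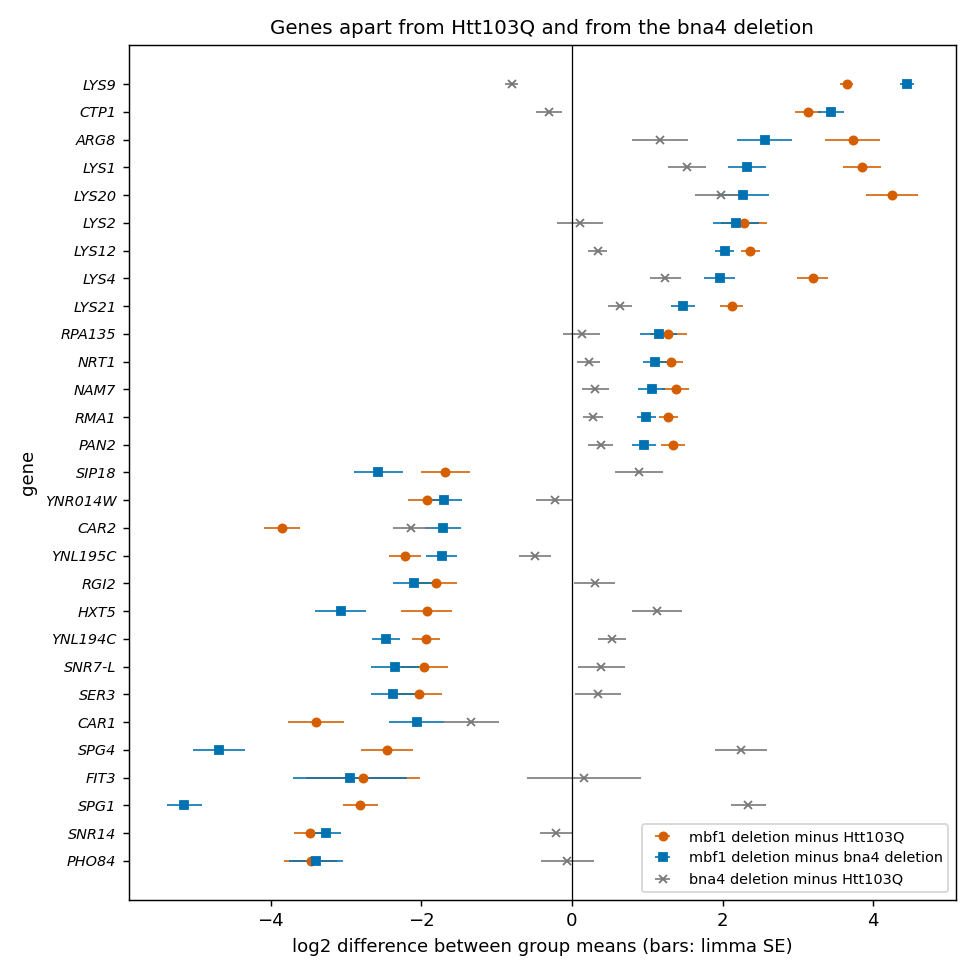
Log2 differences (horizontal axis, bars are limma SE) of the named apart genes, BNA4 left out; circles are the mbf1 deletion minus Htt103Q, squares the mbf1 deletion minus the bna4 deletion and crosses the bna4 deletion minus Htt103Q. Circles and squares lie on the same side of 0 by the rule, and the crosses for LYS2, LYS12, PHO84 and SNR14 lie between −0.21 and 0.34.

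Set against the 2.72% of all genes, 77.8% of lysine genes, 23.1% of arginine genes and 17.6% of peroxisome genes were apart. Phosphate genes and amino acid and peptide permeases each had 14.3%. Of the 21 permeases on that list, 2 were apart and higher and 1 apart and lower. These lists were small, and a gene can belong to more than 1.

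**Figure D5:**
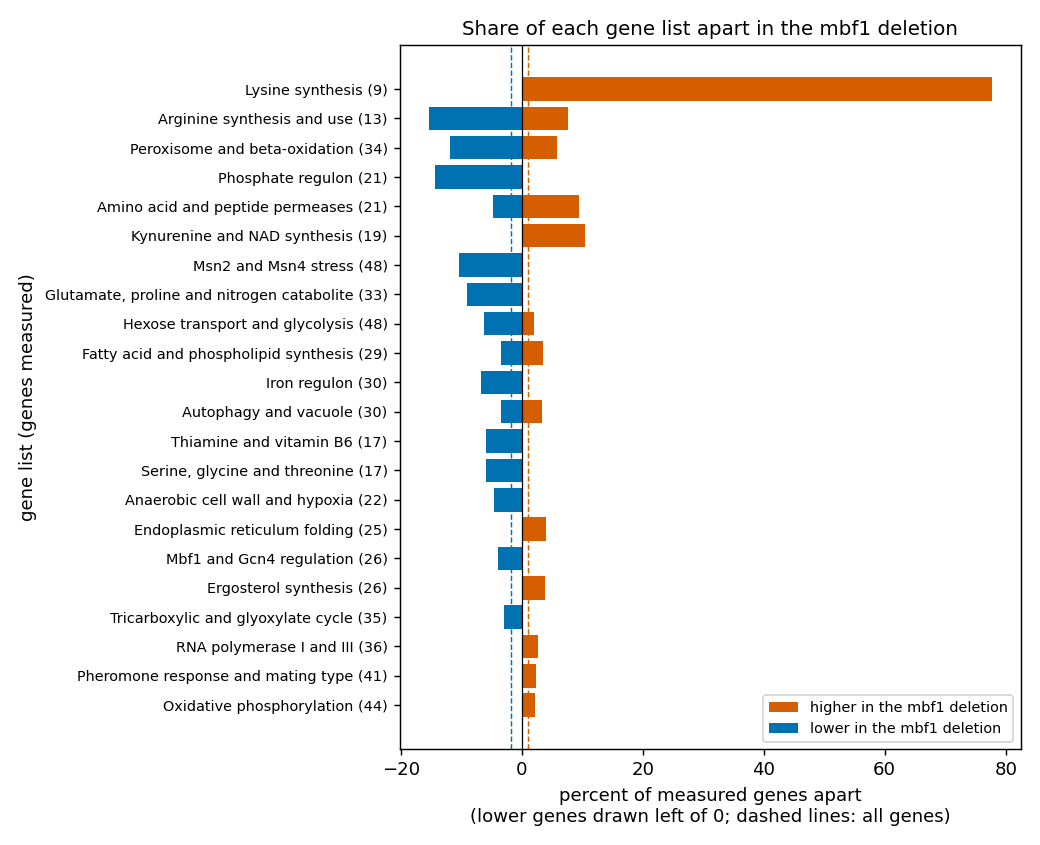
Percent of measured genes apart (horizontal axis) for each gene list with at least 1 apart gene, with the number measured in brackets; higher genes point right, lower genes left, and dashed lines mark all genes. Lysine synthesis stands out with 77.8%, all of it higher. The 10.5% of kynurenine and NAD synthesis counts BNA4, whose call against the bna4 deletion is fixed by construction.

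Cytosolic chaperones, the proteasome and ribosome biogenesis had no apart member, where 2.72% of all genes were apart. Of 40 cytosolic chaperones, 5 were higher and 9 lower than in Htt103Q, shares near the 15.1% and 23.2% of all genes. The bna4 deletion had 7 higher and 9 lower of these chaperones against the same Htt103Q arrays. SSA4, a heat-inducible Hsp70, had 10.38, 9.99 and 9.85 in Htt103Q, 6.71, 6.8 and 6.78 in the bna4 deletion and 8.21, 8.33 and 8.35 in the mbf1 deletion. The mbf1 arrays lay between the other groups, 1.78 below Htt103Q (adjusted p = 7.73e-07) and 1.53 above the bna4 deletion (1.83e-05). Of 127 ribosome biogenesis genes, 49 were higher and 2 lower than in Htt103Q, where 15.1% and 23.2% of all genes were. The bna4 deletion had 59 higher and 5 lower against the same Htt103Q arrays, where 19.6% of all genes were higher and 29.2% lower. Against the bna4 deletion, 1 was higher and 1 lower. UTP22, a ribosome biogenesis gene, missed being apart because not all of its 6 probe sets were called. Of these, 3 were called higher in both comparisons and none lower than in Htt103Q, and 1 was at the floor in every group. Its brightest probe set rose by 0.55 (adjusted p = 0.0147) and 1.07 (0.000979), the first call lost under 4 of 17 alternatives. Of the 37 proteasome genes, 10 were higher and 9 lower than in Htt103Q, where 15.1% and 23.2% of all genes were. The bna4 deletion had 9 higher and 12 lower of them against the same Htt103Q arrays. Between the mbf1 and bna4 deletions, 4 were higher and none lower, where 7.0% and 5.62% of all genes were.

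Several of the largest differences from Htt103Q were not called against the bna4 deletion. CHA1, the serine and threonine deaminase, had 3.07, 3.55 and 3.38 in Htt103Q, 10.12, 10.34 and 10.22 in the bna4 deletion and 9.97, 10.03 and 10.13 in the mbf1 deletion. It rose by 6.70 (adjusted p = 6.04e-10) and differed by −0.19 from the bna4 deletion (0.723). PUF3, an RNA-binding protein of mitochondrial messages, rose by 4.80 (9.91e-08) and differed by 0.72 from the bna4 deletion (0.109). DAK2, dihydroxyacetone kinase, had 7.15, 7.76 and 7.5 in Htt103Q and was at the lowest value, 2.04, in all 6 arrays of both deletions, at least 43.1-fold lower (8.63e-10). For these genes strain and processing set cannot be told apart.

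Where a gene had several probe sets, they often disagreed. Of 315 such genes, 16 had all probe sets called in 1 direction against Htt103Q, 163 had some called and none opposed, 36 had calls in opposite directions and 100 had none called. FAS1, a fatty acid synthase subunit, had 8 probe sets with differences from −5.46 to 1.15. FKS1, a glucan synthase subunit, had 8 from −4.56 to 0.92, and YDR034C-A had 7 from −0.27 to 5.57. No direction is given for these genes. TLC1 was the 1 apart gene with several probe sets, and the rest had 1 probe set each.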

How the data were processed

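Total yeast RNA was measured on 15 Affymetrix arrays, 3 in each of 5 groups. The authors deposited a single table of log2 values for probe sets. How they summarised and normalized it was not stated in the labels or the file header. Probe sets were named from the platform's annotation, with symbols looked up in RefSeq: 6504 matched 1 gene, 328 several and 2443 none.

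Array medians differed between processing sets, so values were quantile normalized over the 15 arrays. Limma (version 3.58.1, R 4.3.3) modelled the 15 arrays as 5 groups with moderated two-sided tests. A call needed a p under 0.05 after Benjamini-Hochberg adjustment over 9275 probe sets. A gene with several probe sets is given by the brightest. Groups with every array less than 0.1 above the lowest deposited value counted as at the floor, and folds against them are bounds. The procedure was tested on simulated data. These held no difference between processing sets and no floor, so that test cannot speak to either.

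Named genes were MBF1, its neighbours, GCN4, SPT15 and BNA4, the 15 apart rises and 15 apart falls with the largest smaller-of-both change and no overlap, the 5 largest rises and falls not called against the bna4 deletion, 3 genes with disagreeing probe sets, and members of 40 gene lists. The members and lists were chosen with earlier results of these data known. Other list members were named after their values were seen. The number of arrays limits the precision.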

Additional observations from a re-analysis of the deposited data

How the results depend on the processing

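The count against Htt103Q stayed between 2742 and 5049 under every alternative run. Against the bna4 deletion, 977 probe sets became 1508 with only the Htt103Q, bna4 and mbf1 arrays and 2969 with array weights, whose estimate did not fully converge. Leaving out 1 array gave 629 (without bna4 replicate 2) to 1553 (without Htt25Q replicate 1, chosen after seeing the data because its actin signal was 2.25 higher at the 3' end). The 154 apart genes became 301 and 574 under the first 2 settings, 60 at an adjusted p under 0.01 in both comparisons, and 103 to 280 with 1 array left out, the highest without Htt25Q replicate 1 and the lowest without mbf1 replicate 1. MBF1 fell by between 9.26 and 9.81 in all. The cause of these moves was not tested. Of the 30 largest named changes, 30 stayed apart in every alternative that kept all arrays, and FIT3 and RPA135 were lost in some that left out 1. Directions against Htt103Q reversed for NDE1 (−0.19) and ERG20 (−0.08) after median centring, and for PEX15 (0.01) and TIR3 (0.14) in the deposited values. Replicate numbers did not pair the arrays, with residual correlations of 0.043 to 0.146 between Htt103Q and mbf1 arrays of the same number and −0.08 to −0.048 between bna4 and mbf1 arrays. With the replicate block the counts were 3478, 978 and 176. Signal over background limits the dimmest probe sets: 646 were at the floor in Htt103Q and not in the mbf1 deletion, and 246 the other way.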

Other observations

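Probe sets with no gene symbol also differed in both comparisons. Of 270 probe sets called in the same direction against Htt103Q and the bna4 deletion, 65 of the 146 higher and 9 of the 124 lower had no symbol. As a background, 2443 of all 9275 probe sets tested had no symbol. The higher ones had differences of 0.36 to 4.99 against Htt103Q and 0.13 to 3.09 against the bna4 deletion.

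GSC2, a glucan synthase subunit picked after its values were seen, had 7 probe sets with differences of −4.25 to 0.80 from Htt103Q, 5 of them called lower, and of −3.96 to 2.56 from the bna4 deletion. STE3, the a-factor receptor of alpha cells, was at 3.11 to 4.32 in the 9 arrays compared and was 0.75 higher in the mbf1 deletion than in Htt103Q (limma adjusted p = 0.0197) and 0.89 higher than in the bna4 deletion (0.0246). The first call was lost under 2 and the second under 4 of 16 alternatives.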
